A study of Mus musculus with 10 samples.

Results

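The 37 genes of the mitochondrial genome were described in T-antigen immortalized mouse embryonic fibroblasts held at 2% CO2 or at 10% CO2. They are the entries of the deposited count table whose name begins with mt-, 37 of 78317 genes, and the table's own classes divide them into 2 rRNA genes, 13 protein-coding genes and 22 tRNA genes. All cells were wildtype and were grown in complete medium with 10% CO2 at 37 °C. They were then kept for 24 h at 2% CO2 (5 libraries) or at 10% CO2 (5 libraries). In each group the labels put replicates 1 to 3 in batch 1 and replicates 4 and 5 in batch 2, without saying what a batch was, and they describe a single immortalized line and do not say whether replicates were separate cultures. The p-values below therefore rest on differences among libraries that may be technical repeats.

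Mitochondria keep a small circular genome of their own, which is copied and transcribed apart from the nuclear genes. RNA is read from promoters on both strands as long precursors, and most messages and both rRNAs are freed when the tRNAs that lie between them are excised. The RNAs serve the mitochondrial ribosome, which makes subunits of the respiratory chain complexes and of ATP synthase, and all other proteins of the organelle are imported.

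Sequence matters to how these genes can be counted, because some of them overlap and some have near-identical copies elsewhere. The end of mt-Atp8 and the start of mt-Atp6, both subunits of ATP synthase on a shared message, are printed first, and capitals mark the 43 bases that belong to both genes. The end of mt-Nd4l and the start of mt-Nd4, complex I subunits on another shared message, follow, and capitals mark their 7 common bases. All sequences are from GENCODE M21 transcripts of build GRCm38, which were used only for gene properties, and all are written 5′ to 3′.
mt-Atp8 end: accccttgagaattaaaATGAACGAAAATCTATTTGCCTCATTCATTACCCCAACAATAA
mt-Atp6 start: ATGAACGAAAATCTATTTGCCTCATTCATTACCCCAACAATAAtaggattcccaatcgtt
mt-Nd4l end: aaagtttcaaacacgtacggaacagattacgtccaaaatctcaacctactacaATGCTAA
mt-Nd4 start: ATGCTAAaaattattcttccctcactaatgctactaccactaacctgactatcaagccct

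Whole tRNA genes are shown because they span the range of tRNA counts described further on, with the anticodon in capitals. The leucine tRNA gene mt-Tl1 held the most counts and the other leucine tRNA gene, mt-Tl2, the fewest, and the threonine tRNA gene mt-Tt was among the genes that fell.
mt-Tl1: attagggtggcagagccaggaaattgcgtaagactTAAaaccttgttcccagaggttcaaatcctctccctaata
mt-Tl2: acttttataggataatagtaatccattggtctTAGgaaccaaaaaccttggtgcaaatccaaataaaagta
mt-Tt: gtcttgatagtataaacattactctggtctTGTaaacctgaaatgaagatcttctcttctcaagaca

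Library totals ran from 178676 to 12354538 estimated counts, and 3 libraries held under 1000000, namely 2% CO2 replicates 2 and 3 and 10% CO2 replicate 5. Values are given as CPM, the counts scaled to a library total of 1000000. In the shallowest library, 2% CO2 replicate 2, a count of 1 equals 5.60 CPM, and a count of 0 allows up to 16.8 CPM. That limit takes in only the error of counting. The 11 fibroblast markers summed to 3862 to 7850 CPM at 2% CO2 and 7446 to 12170 CPM at 10% CO2. Col1a1, Col1a2 and Vim made up most of that sum, and Lum, Fap, Dcn and Pdgfra had medians of 0 to 1.12 CPM. The 5 epithelial markers summed to 64.4 to 111 CPM at 2% CO2 and 42.9 to 73.9 CPM at 10% CO2, of which Krt19 held 33.6 to 98.7 CPM while Epcam and Cdh1 had medians under 1 CPM. The 3 neuron markers summed to 27.7 to 55.97 CPM at 2% CO2 and 25.9 to 57.3 CPM at 10% CO2, nearly all of it Tubb3. The 3 endothelial markers summed to 7.90 to 14.97 CPM at 2% CO2 and 4.07 to 7.73 CPM at 10% CO2, mostly Kdr. Muscle, leukocyte and pluripotency markers summed to at most 5.60, 3.95 and 1.12 CPM in any library. The part of these differences in the results below was not tested.

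Transcripts of the mitochondrial genome together took 4.59% ± 0.74 of all counts at 2% CO2 and 4.91% ± 0.68 at 10% CO2 (SD, n = 5 each). The protein-coding class took 2.74% ± 0.41 at 2% CO2 and 2.7% ± 0.28 at 10% CO2. The rRNA class took 1.84% ± 0.55 at 2% CO2 and 2.20% ± 0.54 at 10% CO2. For each class the ranges of the 2 CO2 levels overlapped. The 22 tRNA genes took 0.00424% ± 0.00052 at 2% CO2 and 0.00506% ± 0.00146 at 10% CO2. In bulk RNA, fewer cells of a type, fewer mitochondrial genomes per cell and less RNA per genome cannot be told apart.

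Gene by gene, CO2 level was tested with edgeR's quasi-likelihood test with batch in the model, and a gene was called at a Benjamini-Hochberg adjusted p under 0.05 over all genes tested. Of the 37 members, 20 passed the filter on low counts, namely both rRNA genes, all 13 protein-coding genes and 5 tRNA genes. Of the 20, 4 were called, all lower at 2% CO2. They were mt-Nd6, mt-Rnr1 and the tRNA genes mt-Ti and mt-Tt. Over all 13198 genes tested, 12.0% were called, 5.30% higher and 6.73% lower. The genes called with scaling by library total in place of TMM (a scaling that trims extreme genes) were 12.5% of those tested, 7.81% higher and 4.65% lower, and of the members only mt-Nd6 and mt-Rnr1 were called. The median log2 fold change (2% minus 10% CO2) was -0.23 over the 20 members and 0.0028 over all genes tested.

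**Figure D1:**
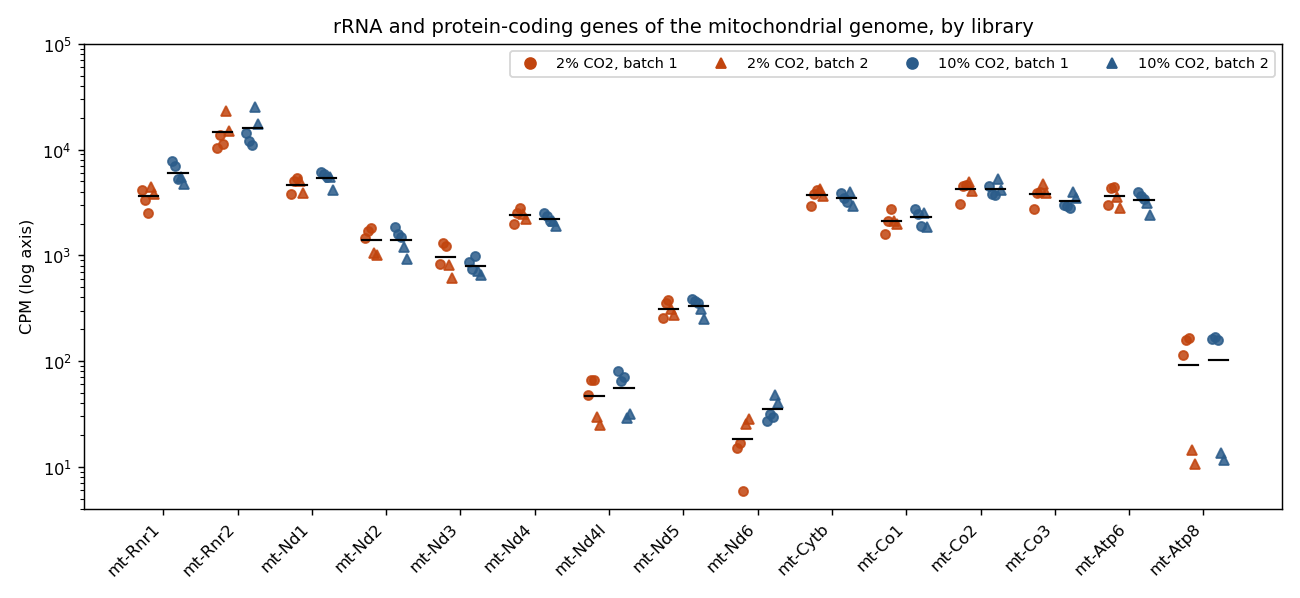
CPM (log axis) of the 2 rRNA and 13 protein-coding genes in each library, 2% CO2 left of 10% CO2 for each gene, circles for batch 1 and triangles for batch 2, with a line at the mean of 5 libraries. For mt-Rnr1 every 2% CO2 library, at 2498 to 4480 CPM, lies below every 10% CO2 library, at 4749 to 7857 CPM.

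The RNA of the small ribosomal subunit, mt-Rnr1, was lower at 2% CO2. It had 4189, 3308, 2498, 4480 and 3782 CPM in 2% CO2 replicates 1 to 5, against 7857, 6940, 5225, 5501 and 4749 CPM in 10% CO2 replicates 1 to 5. The groups did not overlap, which held in the lower direction for 1.99% of all genes tested. The log2 fold change was -0.80 ± 0.18 (SE, adjusted p = 0.00893, edgeR), and it was -1.04 ± 0.21 in batch 1 (adjusted p = 0.0146) and -0.41 ± 0.16 in batch 2 (adjusted p = 0.20). Without 2% CO2 replicates 2 and 3, the shallowest libraries, the log2 fold change was -0.52 with an adjusted p of 0.0645, in a fit chosen after seeing the data. Without all libraries under 1000000 counts it was -0.58 (adjusted p = 0.0471, edgeR). Leaving out each library in turn gave -0.91 to -0.67, with adjusted p of 0.00521 to 0.0297 (edgeR).

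The RNA of the large ribosomal subunit, mt-Rnr2, is cut from the same precursor as mt-Rnr1. It had 10474, 13645, 11375, 23095 and 15009 CPM in 2% CO2 replicates 1 to 5, against 14276, 11957, 11099, 25074 and 17390 CPM in 10% CO2 replicates 1 to 5. The groups overlapped in both batches, and batch 2 was higher than batch 1 at both CO2 levels. The log2 fold change was -0.20 ± 0.14, which was not called (adjusted p = 0.400, edgeR). The nuclear-encoded rRNA entry Rn18s-rs5 took 0.348% to 0.538% of counts at 2% CO2 and 0.480% to 0.608% at 10% CO2, and its part in the rRNA values was not tested.

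Since a ratio of 2 genes does not depend on scaling, 4 ratios between neighbours were compared, each by an exact two-sided permutation test within batches over 120 arrangements, whose smallest possible p is 0.0167, with adjustment over the 4 ratios. The ratio of mt-Rnr2 to mt-Rnr1 was 2.50, 4.13 and 4.55 in 2% CO2 replicates 1 to 3, against 1.82, 1.72 and 2.12 in 10% CO2 replicates 1 to 3. In batch 2 it was 5.15 and 3.97 at 2% CO2, against 4.56 and 3.66 at 10% CO2. The groups were apart in batch 1 and overlapped in batch 2. The log2 difference was 0.62 (exact permutation p = 0.0333, adjusted p = 0.0333), 0.94 in batch 1 and 0.15 in batch 2. The libraries at 4.13 and 4.55 in batch 1 were the 2 shallowest, and without all 3 libraries under 1000000 counts the log2 difference was 0.21 (exact permutation p = 0.333, where the smallest possible is 0.0833).

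**Figure D2:**
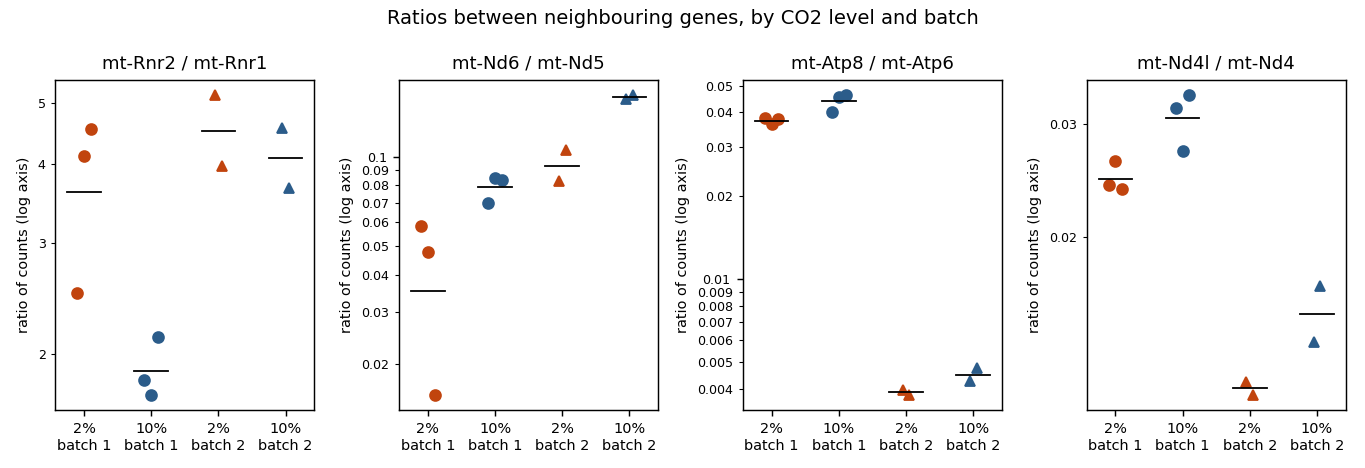
Ratios of counts (log axis) for 4 pairs of neighbouring genes in each library, by batch and CO2 level, with a line at the geometric mean. The ratios mt-Nd6/mt-Nd5, mt-Atp8/mt-Atp6 and mt-Nd4l/mt-Nd4 lie lower at 2% CO2 in both batches without overlap, and mt-Rnr2/mt-Rnr1 lies higher at 2% CO2 without overlap in batch 1 alone.

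Among the 7 complex I subunits, mt-Nd6 was the gene that was called. It is the protein-coding gene read from the light-strand promoter, opposite to the other protein-coding genes. Its level was 14.9, 16.8, 5.92, 25.6 and 28.5 CPM in 2% CO2 replicates 1 to 5, against 27.2, 31.3, 29.4, 48.0 and 40.3 CPM in 10% CO2 replicates 1 to 5. Within each batch every 2% CO2 library was below every 10% CO2 library, which held in the lower direction for 4.58% of all genes tested. The log2 fold change was -0.97 ± 0.14 (adjusted p = 0.000191, edgeR), with -1.14 ± 0.24 in batch 1 (adjusted p = 0.0116) and -0.86 ± 0.15 in batch 2 (adjusted p = 0.0305). In batch 1 the members called were mt-Nd6 and mt-Rnr1, both lower, beside 6.22% of all genes called (2.66% higher and 3.56% lower). In batch 2 it was only mt-Nd6, beside 1.83% of all genes (0.848% higher and 0.978% lower).

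The depth behind mt-Nd6 was small in places: 2% CO2 replicates 2 and 3 held 3 counts each. Without both, the log2 fold change was -0.89 (adjusted p = 0.00128, edgeR). The call was lost only in the fit with no batch term (adjusted p = 0.137), among all the alternatives run. No label or note states whether the counting used strand, so reads of mt-Nd6 and reads of RNA antisense to it, from the strand that carries mt-Nd5, cannot be told apart.

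The neighbour mt-Nd5, another complex I subunit, had 256, 353, 375, 309 and 272 CPM in 2% CO2 replicates 1 to 5, against 390, 369, 354, 308 and 250 CPM in 10% CO2 replicates 1 to 5. The groups overlapped, and the log2 fold change of -0.19 ± 0.11 was not called (adjusted p = 0.285, edgeR). The ratio of mt-Nd6 to mt-Nd5 was 0.0582, 0.0476, 0.0158, 0.0828 and 0.105 in 2% CO2 replicates 1 to 5, against 0.0699, 0.0850, 0.0832, 0.156 and 0.161 in 10% CO2 replicates 1 to 5. It was lower at 2% CO2 within each batch without overlap. The log2 difference was -1.01 (exact permutation p = 0.0167, adjusted p = 0.0222). Without 2% CO2 replicate 3, with its 3 counts of mt-Nd6, it was -0.67 (exact permutation p = 0.0167), and without all 3 libraries under 1000000 counts it was -0.58 (exact permutation p = 0.0833, the smallest possible there).

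Other complex I subunits were not called. The first protein-coding gene after the rRNAs, mt-Nd1, had 3796, 5101, 5374, 5071 and 3900 CPM in 2% CO2 replicates 1 to 5, against 6128, 5932, 5519, 5461 and 4140 CPM in 10% CO2 replicates 1 to 5. Its log2 fold change was -0.31 ± 0.12 (adjusted p = 0.0912, edgeR), and it passed the threshold in the fits without the libraries under 1000000 counts (adjusted p = 0.0457), without 10% CO2 replicate 5 (adjusted p = 0.0260) and with limma-voom (adjusted p = 0.0473). As a share of all counts of the 13 protein-coding genes, a description with no test, mt-Nd1 took 16.9% ± 0.5 at 2% CO2 and 20.1% ± 1.5 at 10% CO2 (SD, n = 5 each). The shares did not overlap, at 16.0% to 17.4% for 2% CO2 and 18.1% to 21.5% for 10% CO2. They leave out the counts that nuclear copies, described further on, held of other protein-coding genes. For shares there is no rate of such separation over all genes.

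For mt-Nd2, levels were 1462, 1701, 1815, 1046 and 1006 CPM in 2% CO2 replicates 1 to 5, against 1852, 1590, 1500, 1199 and 920 CPM in 10% CO2 replicates 1 to 5. Both CO2 levels were lower in batch 2, and the log2 fold change was -0.11 ± 0.10 (adjusted p = 0.581, edgeR). For mt-Nd3, levels were 833, 1318, 1225, 816 and 608 CPM in 2% CO2 replicates 1 to 5, against 860, 739, 994, 712 and 645 CPM in 10% CO2 replicates 1 to 5. Its log2 fold change was 0.15 ± 0.13 (adjusted p = 0.524). The 2 libraries with the most mt-Nd3 were the shallow 2% CO2 replicates 2 and 3, without which the log2 fold change was -0.04.

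The pair on a shared message, mt-Nd4l and mt-Nd4, was counted very unequally. The upstream gene mt-Nd4l had 47.9, 65.8, 66.2, 29.4 and 25 CPM in 2% CO2 replicates 1 to 5, against 80.0, 64.9, 70.5, 28.8 and 31.7 CPM in 10% CO2 replicates 1 to 5. The downstream gene mt-Nd4 had 1986, 2500, 2785, 2470 and 2198 CPM in 2% CO2 replicates 1 to 5, against 2513, 2379, 2115, 2103 and 1886 CPM in 10% CO2 replicates 1 to 5. Over all libraries the groups overlapped for both genes. In batch 2 mt-Nd4 was higher at 2% CO2 without overlap, and how many of all genes were so there was not counted. Neither gene was called, with log2 fold changes of -0.32 ± 0.12 for mt-Nd4l (adjusted p = 0.0962, edgeR) and 0.03 ± 0.10 for mt-Nd4 (adjusted p = 0.922).

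Their ratio set the CO2 levels apart within each batch. The ratio of mt-Nd4l to mt-Nd4 was 0.0241, 0.0263, 0.0238, 0.0119 and 0.0114 in 2% CO2 replicates 1 to 5, against 0.0319, 0.0273, 0.0333, 0.0137 and 0.0168 in 10% CO2 replicates 1 to 5. Within each batch every 2% CO2 library was below every 10% CO2 library. The log2 difference was -0.34 (exact permutation p = 0.0167, adjusted p = 0.0222), with -0.31 in batch 1 and -0.38 in batch 2. Batch 2 was lower than batch 1 by more than the CO2 levels differed, at -1.05 on the log2 scale. The nearest ratios in batch 1 were 0.0263 in 2% CO2 replicate 2, on 11.75 counts of mt-Nd4l, and 0.0273 at 10% CO2. In batch 2, 10% CO2 replicate 5 held 28.25 counts of mt-Nd4l. The part of counting error in the separation was not tested. Without the libraries under 1000000 counts the log2 difference was -0.30 (exact permutation p = 0.0833, the smallest possible there).

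Cytochrome b, mt-Cytb, is the complex III subunit of the genome. It had 2957, 3767, 4124, 4290 and 3666 CPM in 2% CO2 replicates 1 to 5, against 3864, 3489, 3176, 3976 and 2914 CPM in 10% CO2 replicates 1 to 5. The groups overlapped, and the log2 fold change was 0.02 ± 0.11 (adjusted p = 0.971, edgeR).

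The catalytic core of complex IV, cytochrome c oxidase, is encoded by mt-Co1, mt-Co2 and mt-Co3, none of which was called. Levels of mt-Co1 were 1587, 2134, 2747, 2134 and 1958 CPM in 2% CO2 replicates 1 to 5, against 2756, 2435, 1903, 2499 and 1871 CPM in 10% CO2 replicates 1 to 5. Levels of mt-Co2 were 3087, 4542, 4622, 4994 and 4030 CPM in 2% CO2 replicates 1 to 5, against 4501, 3773, 3748, 5233 and 4187 CPM in 10% CO2 replicates 1 to 5. The log2 fold changes were -0.22 ± 0.13 for mt-Co1 (adjusted p = 0.340, edgeR) and -0.11 ± 0.12 for mt-Co2 (adjusted p = 0.641), with overlapping groups for both.

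Levels of mt-Co3 were 2749, 3877, 3959, 4700 and 3875 CPM in 2% CO2 replicates 1 to 5, against 2966, 2920, 2827, 3999 and 3502 CPM in 10% CO2 replicates 1 to 5. The groups overlapped in batch 1 and in batch 2, and the log2 fold change was 0.15 ± 0.11 (adjusted p = 0.419, edgeR). As a share of protein-coding counts, mt-Co3 took 12.5% to 13% at 2% CO2 and 9.86% to 11% at 10% CO2 in batch 1. In batch 2 the share was 15.9% in both 2% CO2 libraries and 13.9% to 15.4% at 10% CO2, so that the CO2 levels were apart in each batch. The share of mt-Atp6 was likewise higher at 2% CO2 without overlap in each batch, and those of mt-Nd1 and mt-Nd6 were lower. No other protein-coding gene had shares apart in each batch. The shares are parts of a whole, so a lower share of mt-Nd1 raises the others, and they are not separate results. A rate over all genes does not exist for them. By CPM the groups of mt-Atp6, like those of mt-Co3, overlapped in each batch. Counts of mt-Co3, mt-Co2 and mt-Atp6 were shared with nuclear copies, described below, which these shares leave out. The part of the copies in the shares was not tested.

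**Figure D3:**
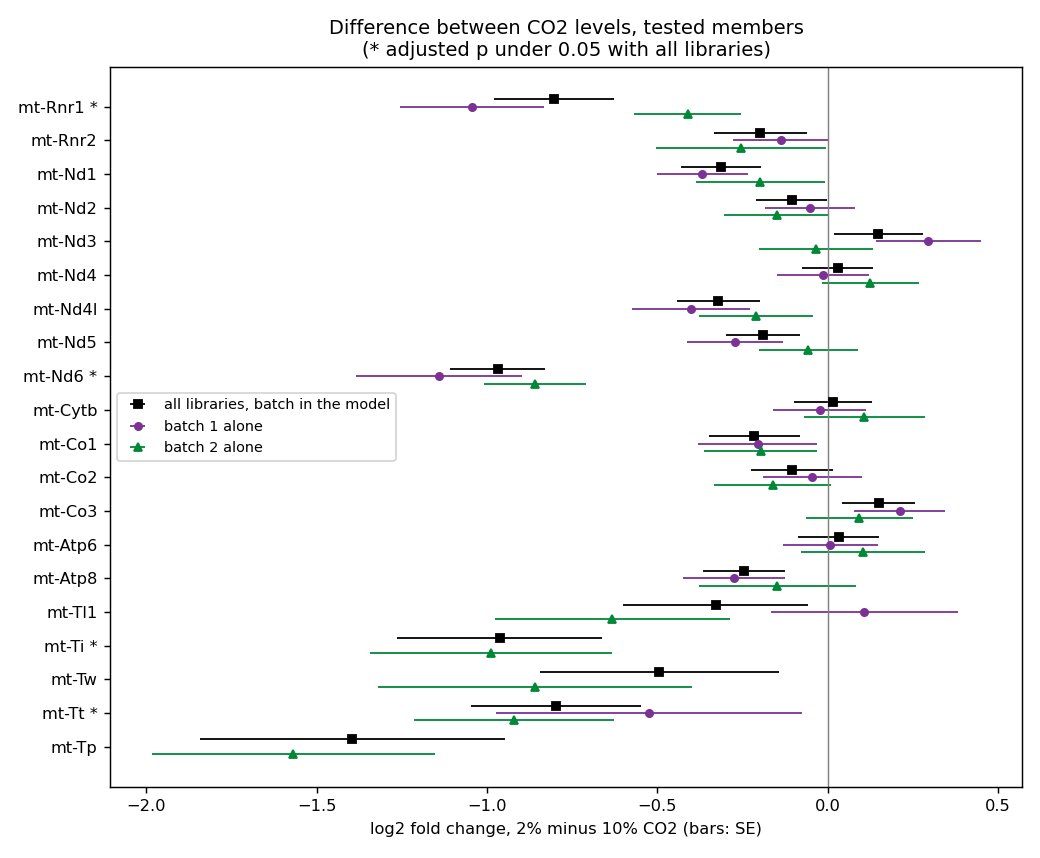
Log2 fold change (2% minus 10% CO2, bars are SE) of the 20 tested members with all libraries and, where the gene passed the filter there, in batch 1 alone and in batch 2 alone, with asterisks for adjusted p under 0.05 with all libraries. The values for mt-Nd6 are -0.97, -1.14 and -0.86, and those for mt-Rnr1 are -0.80, -1.04 and -0.41.

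Of the ATP synthase subunits mt-Atp8 and mt-Atp6, mt-Atp8 was the tested member that differed most between batches. The level of mt-Atp8 was 113, 157, 166, 14.3 and 10.6 CPM in 2% CO2 replicates 1 to 5, against 161, 167, 157, 13.4 and 11.5 CPM in 10% CO2 replicates 1 to 5. The level of mt-Atp6 was 2976, 4323, 4395, 3589 and 2786 CPM in 2% CO2 replicates 1 to 5, against 3993, 3680, 3392, 3125 and 2416 CPM in 10% CO2 replicates 1 to 5. Neither was called for CO2, with log2 fold changes of -0.25 ± 0.12 for mt-Atp8 (adjusted p = 0.205, edgeR) and 0.03 ± 0.12 for mt-Atp6 (adjusted p = 0.923).

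The ratio of mt-Atp8 to mt-Atp6 was 0.0381, 0.0362, 0.0377, 0.00399 and 0.00382 in 2% CO2 replicates 1 to 5, against 0.0403, 0.0454, 0.0463, 0.00428 and 0.00476 in 10% CO2 replicates 1 to 5. It was lower at 2% CO2 within each batch without overlap. The log2 difference was -0.22 (exact permutation p = 0.0167, adjusted p = 0.0222), with -0.23 in batch 1 and -0.21 in batch 2. Against this, the ratio differed by -3.27 on the log2 scale between batch 2 and batch 1. The depth behind mt-Atp8 was small in places, with 28 counts in 2% CO2 replicate 2 and 10.25 in 10% CO2 replicate 5. The nearest ratios in batch 2, 0.00399 and 0.00428, rested on 176.75 and 142 counts of mt-Atp8. The part of counting error in the separation was not tested. Without the libraries under 1000000 counts the log2 difference was -0.17 (exact permutation p = 0.0833, the smallest possible there).

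Batch 2 minus batch 1, with CO2 level in the model, gave 9 of the 20 tested members past the threshold, beside 36.0% of all genes (17.4% higher and 18.5% lower). Lower in batch 2 were mt-Atp8 (log2 fold change -3.56 ± 0.13, adjusted p = 5.16e-12, edgeR), mt-Nd4l (-1.18 ± 0.12), mt-Nd2 (-0.66 ± 0.11), mt-Nd3 (-0.49 ± 0.13) and mt-Atp6 (-0.34 ± 0.12). Higher in batch 2 were the isoleucine tRNA gene mt-Ti (1.05 ± 0.30), mt-Nd6 (0.74 ± 0.13), mt-Rnr2 (0.73 ± 0.14) and mt-Co3 (0.33 ± 0.11). The difference between CO2 levels was not found to vary with batch. For the CO2 by batch interaction 0 members were called with edgeR, beside 0% of all genes, and 0 of the 20 members had an unadjusted p under 0.05. Without 10% CO2 replicate 4, the interaction was called for 135 of all genes and for 0 members. For mt-Rnr1 the interaction was 0.62 ± 0.32 on the log2 scale (adjusted p = 0.601).

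Per kilobase of gene length, and by the counts assigned to each gene itself, mt-Rnr2 was the most abundant member, with 9304 ± 3170 CPM per kilobase at 2% CO2 and 10088 ± 3570 at 10% CO2 (SD, n = 5 each). The highest protein-coding gene was mt-Co2, with 6221 ± 1079 CPM per kilobase at 2% CO2 and 6270 ± 897 at 10% CO2. It was ahead of mt-Atp6 at 2% CO2 (5307 ± 1091) and of mt-Nd1 at 10% CO2 (5680 ± 811) by less than their spread over both batches. In batch 2 every mt-Co2 value was above the highest of mt-Atp6 (5271) and of mt-Nd1 (5707), and in batch 1 the ranges overlapped. The other rRNA, mt-Rnr1, stood at 3823 ± 818 CPM per kilobase at 2% CO2 and 6340 ± 1358 at 10% CO2, where it did not differ from mt-Co2 beyond their spread. In batch 2, mt-Rnr1 had 3960 to 5760 CPM per kilobase over both CO2 levels, below the 5892 to 7651 of mt-Co2.

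This order depends on the nuclear copies described next. With the copies' counts added, mt-Co2 averaged 12441 CPM per kilobase at 2% CO2 and 12538 at 10% CO2, above mt-Rnr2 at both CO2 levels. With copies, mt-Atp6 averaged 10678 CPM per kilobase at 2% CO2 and 9823 at 10% CO2, and mt-Co3 averaged 9776 at 2% CO2 and 8272 at 10% CO2. Both then lay above mt-Rnr2 at 2% CO2 and below it at 10% CO2. These distances from mt-Rnr2 were all smaller than its SD, which takes in both batches. In batch 1, mt-Co2 with copies had 9025 to 13518 CPM per kilobase, above every mt-Rnr2 value, at 6621 to 9024. In batch 2 the ranges overlapped, at 11783 to 15299 for mt-Co2 with copies and 9487 to 15849 for mt-Rnr2.

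The lowest protein-coding gene was mt-Nd6 over both batches, with 35.3 ± 17.4 CPM per kilobase at 2% CO2 and 68.0 ± 16.8 at 10% CO2. In batch 2 it was not set apart from mt-Atp8, with 49.3 to 92.6 CPM per kilobase for mt-Nd6 and 52.2 to 70.1 for mt-Atp8 over both CO2 levels. Levels of mt-Nd4l were 158 ± 65 CPM per kilobase at 2% CO2 and 186 ± 79 at 10% CO2. Those of mt-Nd5 were 171 ± 28 at 2% CO2 and 183 ± 31 at 10% CO2. These SDs take in both batches, which were not alike. In batch 1 the ranges over both CO2 levels overlapped, at 161 to 269 for mt-Nd4l and 140 to 214 for mt-Nd5. With its copy's counts mt-Nd4l averaged 314 CPM per kilobase at 2% CO2 and 370 at 10% CO2, above mt-Nd5. In batch 2, mt-Nd4l had 84.1 to 107 CPM per kilobase by its own counts. That was above every mt-Atp8 value of that batch and below every mt-Nd5 value, at 137 to 169.

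Several of these levels were shared with nuclear copies of mitochondrial DNA, pseudogenes that match the mitochondrial genes almost base for base. The copy Gm28661 held 0.999 to 1.00 times the counts of mt-Co2 in every library, and Gm28437 held 0.999 to 1.00 times those of mt-Co3. Atp6-ps held 1.00 to 1.02 times those of mt-Atp6. Gm10222 held 0.981 to 1 times the counts of mt-Nd4l, Gm28438 held 0.498 to 0.5 times those of mt-Nd3, and Gm29216 held 0.416 to 0.681 times those of mt-Co1. For mt-Nd4 the copy Gm28439 held 0.0538 to 0.109 times its counts.

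**Figure D4:**
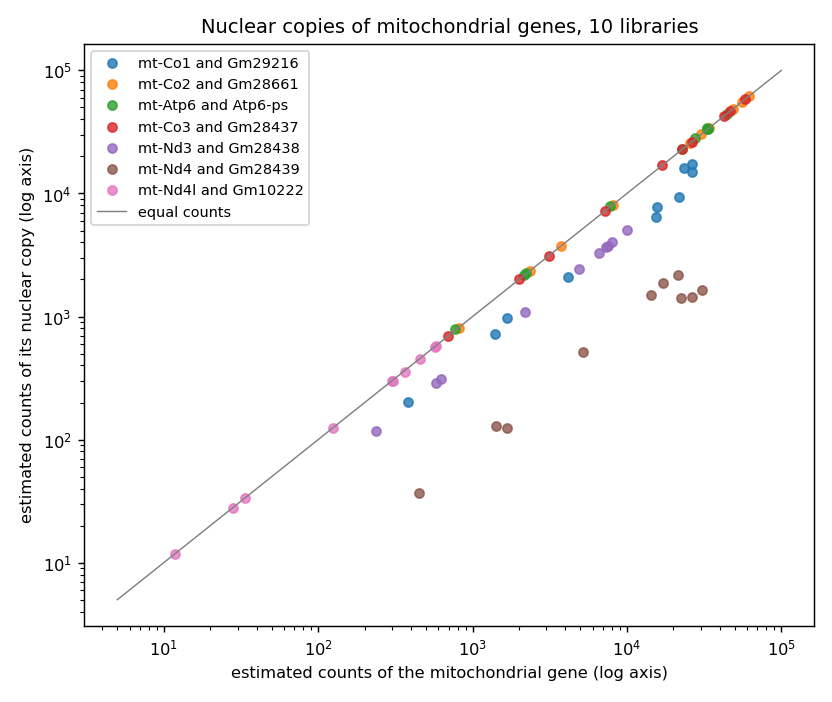
Estimated counts of 7 nuclear copies against those of the matching mitochondrial gene in the 10 libraries, on log axes, with a line of equal counts. Copies of mt-Co2, mt-Co3, mt-Atp6 and mt-Nd4l lie on the line, and those of mt-Nd3, mt-Co1 and mt-Nd4 lie below it.

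The share of a gene's 50-base windows that also occurs in a nuclear transcript was 100% for mt-Co2, 99.9% for mt-Co3, 99.5% for mt-Atp6, 98.8% for mt-Nd4l and 98.0% for mt-Nd3. It was 62.2% for mt-Nd4 and 51.1% for mt-Co1, and at most 8.19% for every other member. For mt-Rnr1, mt-Nd1, mt-Nd6, mt-Cytb, mt-Atp8 and the tRNA genes it was 0%, so the 4 called genes have no such window. The levels of mt-Co2, mt-Co3, mt-Atp6, mt-Nd4l, mt-Nd3, mt-Nd4 and mt-Co1 are uncertain at least to the extent of the copies' counts. The copies counted here came from a fixed list. It left out Gm13340, with 411 windows shared with mt-Co1, beside 430 for Gm29216. Also left out were Gm13341, with 224 windows shared with mt-Co2, and copies that share fewer windows with mt-Nd2, mt-Nd5 and other members. Counts of these unlisted copies were not examined. When the listed copies were added to their members, 5 members were called, all lower, the added one being the proline tRNA gene mt-Tp. Of all genes 1592 of 13191 were then called, 702 higher and 890 lower.

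The listed copies took 1.37% ± 0.22 of all counts at 2% CO2 and 1.27% ± 0.12 at 10% CO2 (SD, n = 5 each). The 3 most abundant were not called and had log2 fold changes close to those of their partners, which the shared counts fix. Gm28661 averaged 4255 ± 738 CPM at 2% CO2 and 4287 ± 613 CPM at 10% CO2. Gm28437 averaged 3833 ± 697 CPM at 2% CO2 and 3242 ± 498 CPM at 10% CO2, and Atp6-ps averaged 3658 ± 768 CPM at 2% CO2 and 3368 ± 634 CPM at 10% CO2. A further entry of the list, Gm29215, was at 0 in every library.

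The tRNA genes were at the edge of detection. All 22 together held 2925 counts over the 10 libraries, of which mt-Tl1, between mt-Rnr2 and mt-Nd1, held 1862, and 14 of the 22 held under 30 counts. The other leucine tRNA, mt-Tl2, held 0.33 counts. The 17 tRNA genes that did not pass the filter held at most 67.5 counts (mt-Ts1), and none was above 1.85 CPM at 2% CO2 or 1.91 CPM at 10% CO2 in any library. The 8 tRNA genes read from the light-strand promoter held 7.45% of the tRNA counts. No tRNA gene shared a 50-base window with a nuclear transcript.

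**Figure D5:**
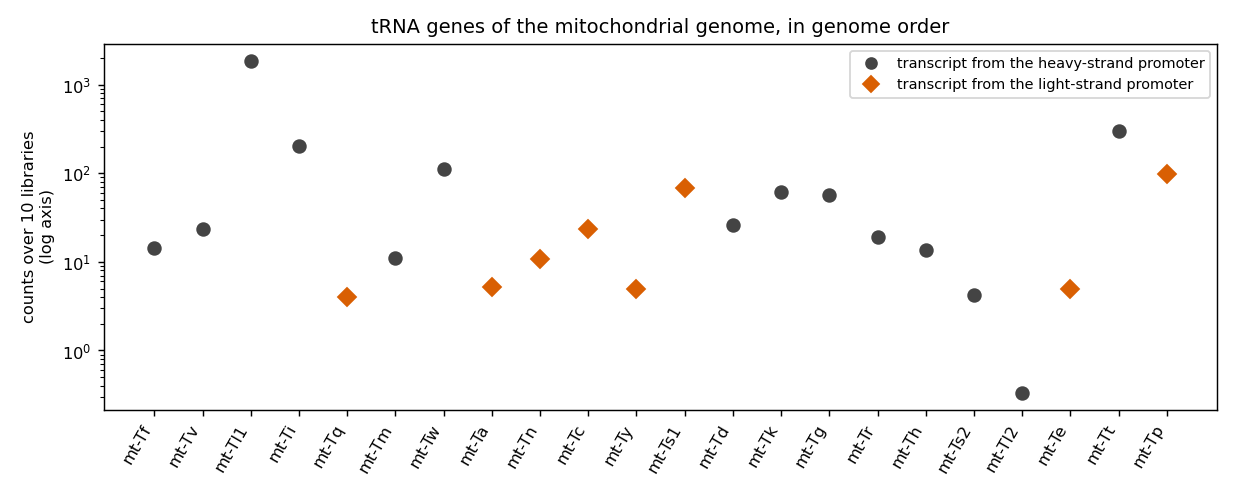
Counts of the 22 tRNA genes summed over 10 libraries (log axis), in genome order, with circles for genes of the heavy-strand promoter transcript and diamonds for those of the light-strand promoter transcript. The highest is mt-Tl1 at 1862 counts, followed by mt-Tt at 298 counts, and the lowest is mt-Tl2 at 0.33 counts.

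Of the 5 tRNA genes tested, mt-Ti and mt-Tt were called. The isoleucine tRNA gene mt-Ti, next to mt-Nd1, had 1.91, 0, 0.987, 2.95 and 2.95 CPM in 2% CO2 replicates 1 to 5, against 2.72, 2.17, 2.84, 6.27 and 2.24 CPM in 10% CO2 replicates 1 to 5. It was lower at 2% CO2 in batch 1 without overlap, and in batch 2 the groups overlapped. In batch 1 the 2% CO2 replicates 1 to 3 held 5, 0 and 0.5 counts. How many of all genes were apart in a single batch was not tested. The log2 fold change was -0.96 ± 0.30 (adjusted p = 0.0438, edgeR). The call was lost in 7 of 10 fits that left out a library, and without 10% CO2 replicate 4 the log2 fold change was -0.46 (adjusted p = 0.668).

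The threonine tRNA gene mt-Tt, next to mt-Cytb, had 4.01, 0, 4.94, 4.09 and 3.49 CPM in 2% CO2 replicates 1 to 5, against 6.76, 4.45, 4.78, 6.46 and 7.84 CPM in 10% CO2 replicates 1 to 5. Batch 2, with replicates 4 and 5 alone, showed no overlap, and how many of all genes were so there was not counted. Of the other tested tRNA genes, mt-Tw and mt-Tp were also lower there without overlap, and mt-Ti and mt-Tl1 overlapped. In batch 1 the groups overlapped for mt-Tt. The log2 fold change was -0.80 ± 0.25 (adjusted p = 0.0447, edgeR), and the call was lost in 9 of 10 fits that left out a library, with an adjusted p of up to 0.244 without 10% CO2 replicate 4. A value of 0 in 2% CO2 replicate 2 allows up to 16.8 CPM, above every value of mt-Ti and of mt-Tt.

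The other tested tRNA genes were not called. The leucine tRNA gene mt-Tl1 had 25.9, 30.8, 32.6, 34.2 and 21.6 CPM in 2% CO2 replicates 1 to 5, against 36.1, 20.3, 21.8, 47.6 and 23.0 CPM in 10% CO2 replicates 1 to 5, and its log2 fold change was -0.33 ± 0.27 (adjusted p = 0.498, edgeR). The tryptophan tRNA gene mt-Tw ranged from 0 to 2.96 CPM at 2% CO2 and from 1.95 to 2.63 CPM at 10% CO2 (log2 fold change -0.49 ± 0.35, adjusted p = 0.410). The proline tRNA gene mt-Tp had 0.381, 11.2, 0, 1.05 and 1.08 CPM in 2% CO2 replicates 1 to 5, against 1.93, 1.11, 1.48, 3.11 and 2.24 CPM in 10% CO2 replicates 1 to 5. Its log2 fold change was -1.40 ± 0.45, with an adjusted p of 0.05003 that lay just above the threshold. The value of 11.2 CPM rests on 2 counts, and without that library the adjusted p was 0.00934 (edgeR). In that fit mt-Tp passed the filter on low counts only through 10% CO2 libraries, where it was higher. That p therefore lends no support to a difference.

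Nuclear genes that transcribe and process mitochondrial RNA were listed from their known roles, 55 names, of which 53 were tested. There were 10 called (8 higher and 2 lower at 2% CO2), with a median log2 fold change of 0.23 over the list beside 0.0028 over all genes. Over all genes tested, 12.0% were called, 5.30% higher and 6.73% lower. With library total scaling 11 of the 53 were called, 11 higher and 0 lower, beside 7.81% of all genes higher and 4.65% lower.

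Among factors of mitochondrial DNA, Tfam, which packages the genome and starts transcription, averaged 65.8 ± 15.3 CPM at 2% CO2 and 49.2 ± 7.0 CPM at 10% CO2 (log2 fold change 0.33 ± 0.10, adjusted p = 0.0410, edgeR). Twnk, the replicative helicase, averaged 14.2 ± 7.1 CPM at 2% CO2 and 10.8 ± 1.5 CPM at 10% CO2 (0.58 ± 0.17, adjusted p = 0.0338). Not called were the DNA polymerase subunits Polg (-0.19 ± 0.14, adjusted p = 0.415) and Polg2 (0.33 ± 0.21, adjusted p = 0.415), the single-strand binding protein Ssbp1 (-0.15 ± 0.12, adjusted p = 0.462) and the primase Primpol (0.20 ± 0.27, adjusted p = 0.71).

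Of the rRNA methyltransferases Mrm1, Mrm2, Mrm3, Nsun4 and Tfb1m, those called were Mrm3, Mrm2 and Tfb1m. Mrm3, a methyltransferase of the large-subunit rRNA, averaged 15.4 ± 6.8 CPM at 2% CO2 and 9.0 ± 3.25 CPM at 10% CO2 (log2 fold change 0.75 ± 0.18, adjusted p = 0.0122, edgeR). Mrm2, of the same kind, averaged 15.2 ± 2.0 CPM at 2% CO2 and 10.4 ± 0.9 CPM at 10% CO2 (0.53 ± 0.16, adjusted p = 0.0324). Tfb1m, which methylates the small-subunit rRNA, averaged 7.97 ± 3.79 CPM at 2% CO2 and 4.44 ± 1.53 CPM at 10% CO2 (0.75 ± 0.24, adjusted p = 0.0491). The others, Mrm1 (0.66 ± 0.25, adjusted p = 0.0993) and Nsun4 (-0.10 ± 0.20, adjusted p = 0.820), were not called. Polg, Polg2, Ssbp1, Primpol, Mrm1 and Nsun4 were named after their values were seen.

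Others that rose were Trmt61b, an RNA methyltransferase (0.63 ± 0.16), Fastkd2, an RNA-binding protein of the mitochondrial ribosome's assembly (0.52 ± 0.13), and Nrf1, a nuclear regulator of genes for mitochondrial proteins (0.56 ± 0.12). Those that fell were Grsf1, an RNA granule protein (log2 fold change -0.33 ± 0.10), and the nuclear receptor Esrra (-0.46 ± 0.13). With library total scaling neither was called, at -0.26 for Grsf1 (adjusted p = 0.136, edgeR) and -0.39 for Esrra (adjusted p = 0.0633). The RNA polymerase Polrmt averaged 15.6 ± 7.9 CPM at 2% CO2 and 15.9 ± 2.5 CPM at 10% CO2 and was not called (-0.08 ± 0.17, adjusted p = 0.833, edgeR). Also not called were its partner Tfb2m (0.01 ± 0.14), the elongation factor Tefm (0.37 ± 0.14, adjusted p = 0.0879), and the mRNA-stabilising pair Lrpprc (0.25 ± 0.12) and Slirp (-0.06 ± 0.13). Of 10 fits that each left out a library, the call was lost in 9 for Tfb1m, 8 for Tfam and Grsf1, 6 for Twnk and Esrra, 5 for Mrm2, 2 for Trmt61b and Fastkd2, and 1 for Nrf1 and Mrm3. The count of 10 varied with the libraries used. Without 10% CO2 replicate 4 it was 1, beside 736 of all genes. It was 3 without 2% CO2 replicate 1 (beside 1203 of all genes) and 3 without 2% CO2 replicate 4 (1014). It was 4 without 10% CO2 replicate 3 (1108), 5 without 2% CO2 replicate 5 (1403) and 6 without 10% CO2 replicate 1 (1286). With all libraries 1588 of all genes were called, so in these fits calls fell over all genes as well as in the list.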

How the data were processed

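Counts were deposited by the authors as estimated counts per gene, not normalized, with fractional values. The submitters' processing notes name build GRCm39, Subread 2.1.1 with featureCounts, STAR 2.7.11, MultiQC 1.32 and SAMtools 1.22.1. Strand, poly(A) selection and the rule for shared reads are not stated. A CPM table deposited by the authors served only as a check. After rounding to whole numbers, edgeR 4.0.16 (R 4.3.3) was run on the counts (minimum count 10, minimum total 15, TMM, batch plus CO2, robust quasi-likelihood F test, two-sided), which was tested on simulated data. The 92 spike-in entries, all 0, were left out. Named genes were both rRNA and all protein-coding genes, tested tRNA genes, called members of the processing list up to 10 with 7 fixed names, and the 3 most abundant nuclear copies. Members and lists were chosen with earlier results of these data known. Alternatives used DESeq2 1.42.0, limma 3.58.1, other scalings, filters and sets of libraries.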

Additional observations from a re-analysis of the deposited data

Results flagged for a closer look

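In 84 groups of 5 libraries, 3 held a library far from the other 4 by Dixon's test, where chance gives about 4.2. For mt-Tp, 2% CO2 replicate 2 stood at 11.2 CPM and the nearest of the other 2% CO2 libraries at 1.08 CPM. For mt-Ti, 10% CO2 replicate 4 stood at 6.27 CPM and the nearest at 2.84 CPM. For Mrm3, 10% CO2 replicate 5 stood at 3.36 CPM and the nearest at 9.05 CPM.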

How the results depend on the processing

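With all libraries 4 members were called, and leaving out each library gave 2 to 5. The count was 2 with library total scaling, with a filter of 10 CPM, in batch 1 alone, in batch 1 with library total scaling, without 2% CO2 replicates 2 and 3, and with DESeq2. It was 1 with no batch term and 1 in batch 2 alone. Of the processing list, 10 were called, 1 to 10 when each library was left out, 5 with no filter, 0 with no batch term, 2 in batch 1 alone, 3 in batch 1 with library total scaling and 0 in batch 2 alone (edgeR). At an unadjusted p under 0.05 those counts of 0 were 12 with no batch term and 20 in batch 2 alone, beside 23 with all libraries and batch in the model. Calls over all genes varied in these fits too. With all libraries they were 1588 of 13198 with batch in the model and 351 of 13198 with no batch term. They were 763 of 12275 in batch 1 alone and 267 of 14627 in batch 2 alone. Leaving out each library gave 736 to 1724 of all genes. The interaction called 0 members whichever library was left out. Chosen after seeing the data were the fits with nuclear copies added, without 2% CO2 replicates 2 and 3, and of batch 1 with library total scaling.

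With no batches, the ratio differences missed the threshold, at 0.62 for mt-Rnr2 to mt-Rnr1 (exact permutation p = 0.0873), -1.01 for mt-Nd6 to mt-Nd5 (0.0873), -0.22 for mt-Atp8 to mt-Atp6 (0.532) and -0.34 for mt-Nd4l to mt-Nd4 (0.389). Without the libraries under 1000000 counts they were 0.21, -0.58, -0.17 and -0.30 in that order, where no p under 0.0833 is possible. Leaving out each library gave 0.49 to 0.75 for mt-Rnr2 to mt-Rnr1, with exact permutation p of up to 0.1 and the threshold missed in 7 of 10.

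Whether replicate numbers pair the libraries was not settled. After removing CO2 and batch means, same-numbered libraries correlated at 0.48, -0.32, 0.02, -0.01 and -0.62. Of 10 libraries, 1 correlated best with its own number. Few libraries per CO2 level and batch stood behind these values, so they cannot decide the question. For mt-Rnr1, CPM fell from replicate 1 to 3 and from 4 to 5 at both CO2 levels. With the replicate block, 3 members, 9 of the processing list and 1927 of all genes were called, beside 1588 of all genes without it. The SE was smaller with the block for mt-Rnr1 (0.13 against 0.18) and mt-Tl1 (0.14 against 0.27). It was larger for mt-Ti (0.36 against 0.30) and mt-Tt (0.28 against 0.25). The ratio differences stayed at 0.62, -1.01, -0.22 and -0.34 with p = 0.0625 (exact), the smallest possible.

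Uncalled genes near 0 changed sign in some fits, and the cause was not tested. In batch 1 alone the log2 fold change was 0.11 for mt-Tl1, -0.013 for mt-Nd4, -0.024 for mt-Cytb, 0.069 for Polrmt, -0.019 for Tfb2m and 0.19 for Slirp. With library total scaling in batch 1 it was 0.12 for mt-Tl1, 0.0068 for mt-Nd2, 0.023 for mt-Co2 and Gm28661, 0.076 for Polrmt, -0.017 for Tfb2m and 0.23 for Slirp, and with all libraries it was 0.014 for Slirp. In batch 2 alone it was -0.034 for mt-Nd3. Without the libraries under 1000000 counts it was -0.18 for mt-Atp6 and Atp6-ps, -0.023 for mt-Co3 and Gm28437, -0.057 for mt-Nd3, -0.082 for mt-Nd4, -0.16 for mt-Cytb, -0.010 for Tfb2m and 0.075 for Slirp. Without 2% CO2 replicates 2 and 3 it was -0.067 for mt-Atp6, -0.068 for Atp6-ps, -0.038 for mt-Nd3, -0.023 for mt-Nd4 and -0.038 for mt-Cytb. Leaving out each library gave -0.47 to 0.12 for mt-Tl1, -0.041 to 0.10 for mt-Atp6, -0.043 to 0.10 for Atp6-ps, -0.018 to 0.081 for mt-Nd4, -0.062 to 0.067 for mt-Cytb, -0.18 to 0.061 for Polrmt, -0.076 to 0.084 for Tfb2m and -0.19 to 0.043 for Slirp. Depth limits the tRNA genes, of which 17 of 22 did not pass the filter on low counts.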
